A study of Mus musculus with 18 samples.

Results

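Striatal projection neurons are the main cell type of the striatum, the large nucleus that lies beneath the cerebral cortex. A set of 9 genes of these neurons was followed through 18 libraries of mouse brain tissue taken after a stroke of the cortex. The members were the genes whose symbol in the expected count and TPM tables was Drd1, Drd2, Adora2a, Ppp1r1b, Penk, Tac1, Rgs9, Syndig1l or Pde10a, and each of the 9 was found once among 18922 genes. TPM is a level scaled to library size and corrected for transcript length, so that levels of different genes can be set side by side.

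The libraries came from male C57Bl6 mice of 8 to 10 weeks, either with a knockout of Trem2 (KO), a receptor of microglia and macrophages, or wild type (WT) for it. All animals carried the same injury: Rose Bengal, a light-activated dye, was injected into the abdominal cavity at 50 mg/kg, and a laser of 525 nm and 125 mW closed the vessels of the cortex within a circle of 3 mm across. On day 7 the brains were stained with TTC, which leaves dead tissue pale, and cut into the infarct core, the peri-infarct zone around it and the site on the other, contralateral side. The 6 groups, KO core, WT core, KO peri-infarct, WT peri-infarct, KO contralateral and WT contralateral, held 3 libraries each. Uninjured animals were not analysed here, and the sources used here do not say how the knockout was made or how far below the cortical surface the dissection went. The labels do not say which libraries came from separate animals, so p-values measure the spread between these libraries, which may be technical in part.

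Striatal projection neurons use GABA and fall into a pair of classes. Direct-pathway neurons carry the dopamine receptor D1 and make substance P, and indirect-pathway neurons carry the dopamine receptor D2 and the adenosine receptor encoded by Adora2a and make enkephalin. Dopamine raises cyclic AMP through D1 and lowers it through D2, and both classes turn this signal over with the phosphoprotein DARPP-32, the phosphodiesterase PDE10A and the G-protein regulator RGS9. Cells of the cortex express most of these genes at a lower level or in few cells, so a bulk library of cortex with striatum attached can show them at a raised level. In bulk tissue, fewer cells of a type and less RNA per cell cannot be told apart.

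Promoter sequences are shown as background, and whether they have a part in the members' shared variation between libraries was not tested. RefSeq promoters (GRCm38.p6, 250 bases before to 50 bases after a transcript start) were matched for 5 of the 9 members, with 7 promoters in all, for Drd1, Drd2, Tac1, Rgs9 and Pde10a. One is printed for a receptor of each class, a neuropeptide and a gene of both classes. They lie at chr13:54055609-54055908 on the minus strand (Drd1), chr9:49340153-49340452 on the plus strand (Drd2), chr6:7554811-7555110 on the plus strand (Tac1) and chr11:109298132-109298431 on the minus strand (Rgs9). Capitals mark 3 motifs searched on both strands, which did not overlap in these sequences: the GC box GGGCGG, the cyclic AMP response element half-site TGACG and the TATA box TATAAA.
Drd1: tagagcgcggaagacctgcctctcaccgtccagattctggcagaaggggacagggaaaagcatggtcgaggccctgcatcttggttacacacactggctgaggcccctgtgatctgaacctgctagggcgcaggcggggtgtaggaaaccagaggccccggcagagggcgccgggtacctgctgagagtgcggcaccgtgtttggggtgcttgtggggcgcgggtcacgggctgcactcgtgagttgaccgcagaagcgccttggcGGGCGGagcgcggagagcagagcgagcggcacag
Drd2: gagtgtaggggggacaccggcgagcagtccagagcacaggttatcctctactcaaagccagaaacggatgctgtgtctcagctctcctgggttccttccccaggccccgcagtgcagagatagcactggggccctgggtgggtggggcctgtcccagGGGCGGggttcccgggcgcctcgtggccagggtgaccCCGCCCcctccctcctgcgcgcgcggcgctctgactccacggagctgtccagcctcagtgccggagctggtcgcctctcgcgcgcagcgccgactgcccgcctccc
Tac1: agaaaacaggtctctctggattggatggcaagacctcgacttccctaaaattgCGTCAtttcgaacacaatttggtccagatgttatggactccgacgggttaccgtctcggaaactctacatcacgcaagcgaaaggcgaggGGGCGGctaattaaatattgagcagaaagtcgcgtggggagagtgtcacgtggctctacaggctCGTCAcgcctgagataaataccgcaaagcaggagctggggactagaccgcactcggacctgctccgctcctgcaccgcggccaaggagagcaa
Rgs9: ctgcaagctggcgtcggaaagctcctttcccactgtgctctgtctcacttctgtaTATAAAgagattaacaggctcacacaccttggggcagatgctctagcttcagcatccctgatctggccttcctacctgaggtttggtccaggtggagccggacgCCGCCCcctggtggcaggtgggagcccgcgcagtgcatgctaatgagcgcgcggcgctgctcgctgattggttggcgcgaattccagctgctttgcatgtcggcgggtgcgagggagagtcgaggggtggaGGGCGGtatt
The GC box was found in 7 of the 7 member promoters, and 35.7% of 32851 RefSeq promoters of the same 300 bases hold it. The half-site was found in 1 member promoter, that of Tac1, where it occurred 2 times as its reverse complement, against 20.8% of all promoters. The TATA box was found in 1, that of Rgs9, against 13.6% of all promoters. The GC content was 65.7% for Drd1, 70.3% for Drd2, 54.0% for Tac1 and 60.3% for Rgs9, and the median of all promoters was 52.7%. These are matches of letters and do not show that a factor binds there.

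Total expected counts were 16993978 to 17691801 in 17 libraries and 18713770 in WT core replicate 3. That library stood apart. It had 16216 genes with a count, against 16720 to 17109 in the others, and its 10 most abundant genes took 15.5% of the counts, against 3.27% to 5.38% elsewhere. Its summed level of 9 pan-neuronal markers was 57.8 TPM, against 2935 to 7857 TPM in the other 17 libraries, and its summed level of 9 microglia and macrophage markers was 13607 TPM, against 578 to 6200 TPM. Results that rest on it are therefore given with it and without it. Trem2, the targeted gene, was at 0.90 to 19.6 TPM in the 9 KO libraries and at 56.0 to 1338 TPM in the 9 WT libraries, and the ranges did not overlap within any region.

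All 9 members passed the filter on low counts and were tested among 15329 genes. By mean TPM over the 18 libraries, the order of levels was Ppp1r1b (202 TPM), Penk (160.4 TPM), Tac1 (47.4 TPM), Pde10a (29.9 TPM), Rgs9 (28.0 TPM), Adora2a (13.8 TPM), Syndig1l (12.8 TPM), Drd1 (9.99 TPM) and Drd2 (9.51 TPM). Neighbours in this order overlapped over the libraries in every case. Each member reached its highest level in KO contralateral replicate 1. For 8 of the 9 the lowest level was in WT core replicate 3, and for Penk it was in WT core replicate 1.

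**Figure D1:**
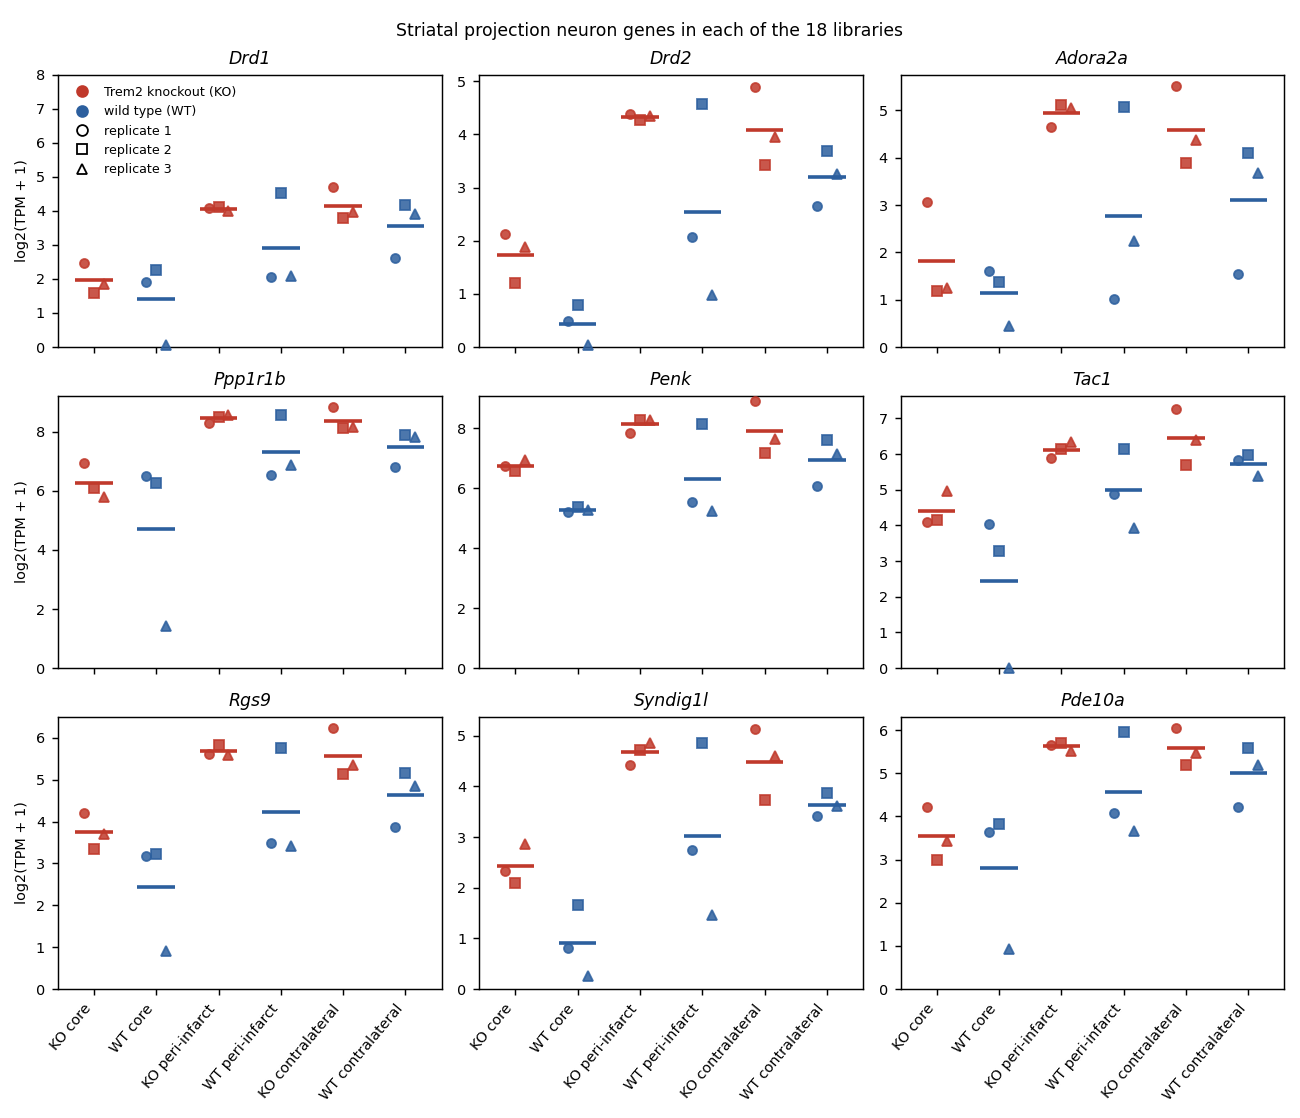
Level of each of the 9 genes, as log2(TPM + 1), in each library; points are libraries, the shape gives the replicate number and the bar the mean of the 3 libraries of a group. The KO core libraries lie below all KO peri-infarct and KO contralateral libraries for 9 of 9 genes, and the WT peri-infarct libraries spread widely, with replicate 2 highest for 9 of 9 genes.

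The dopamine and adenosine receptors were low in the infarct core of both genotypes. Drd1, the D1 receptor of direct-pathway neurons, was at 4.52, 1.99 and 2.60 TPM in KO core, 15.9, 16.4 and 14.9 TPM in KO peri-infarct and 25.1, 12.7 and 14.6 TPM in KO contralateral tissue. In WT mice Drd1 was at 2.77, 3.75 and 0.05 TPM in core, 3.20, 22.0 and 3.28 TPM in peri-infarct and 5.08, 17.02 and 14.0 TPM in contralateral tissue. In both genotypes every core library was below every contralateral library, while in WT the core and peri-infarct libraries overlapped. The log2 fold change of Drd1 between core and contralateral tissue was -2.39 ± 0.87 (SE) in KO (adjusted p = 0.0636) and -2.27 ± 0.88 in WT (adjusted p = 0.0534), from edgeR's quasi-likelihood test with Benjamini-Hochberg adjustment over all tested genes. Neither passed the threshold of 0.05, while both passed with the alternative test DESeq2 (adjusted p = 0.0236 in KO and 0.0195 in WT). With WT core replicate 3 left out, Drd1 fell by 2.40 on the log2 scale in KO (SE 0.68, adjusted p = 0.00856 by the same edgeR test), and the WT value was -1.72 ± 0.79 (adjusted p = 0.0982).

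Drd2, the D2 receptor of indirect-pathway neurons and of cholinergic interneurons, changed most between core and contralateral tissue in WT mice among the 9. It was at 3.35, 1.29 and 2.67 TPM in KO core, 19.7, 18.2 and 19.4 TPM in KO peri-infarct and 28.5, 9.77 and 14.5 TPM in KO contralateral tissue. In WT it was at 0.41, 0.72 and 0.03 TPM in core, which rests on 9, 16 and 1 counts, at 3.21, 22.7 and 0.97 TPM in peri-infarct and at 5.26, 11.9 and 8.52 TPM in contralateral tissue. No core library reached the level of any peri-infarct or contralateral library of its genotype. Against contralateral tissue Drd2 fell by 2.73 on the log2 scale in KO core (SE 0.87, adjusted p = 0.0356, edgeR), a fold of 0.151, and fell by 4.22 in WT core (SE 1.03, adjusted p = 0.00570, edgeR), a fold of 0.0536. Both passed the edgeR test without WT core replicate 3 as well, at -2.74 ± 0.82 in KO (adjusted p = 0.0119) and -3.74 ± 1.20 in WT (adjusted p = 0.0241). The call of Drd2 in KO was lost in 5 fits that left out a single KO core or KO contralateral library, at adjusted p of 0.0601 to 0.132 (edgeR).

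Adora2a, the gene of the adenosine receptor that opposes D2 in indirect-pathway neurons, spread most within groups. It was at 7.32, 1.27 and 1.37 TPM in KO core, 24.2, 33.5 and 32.1 TPM in KO peri-infarct and 44.4, 13.8 and 19.6 TPM in KO contralateral tissue. In WT it was at 2.03, 1.61 and 0.37 TPM in core, 1.03, 32.4 and 3.74 TPM in peri-infarct and 1.90, 16.2 and 11.9 TPM in contralateral tissue. The KO core libraries were below all other KO libraries, but in WT replicate 1 of both other regions was as low as the core. The log2 fold changes between core and contralateral tissue, -2.84 ± 1.10 in KO (adjusted p = 0.0789) and -2.66 ± 1.16 in WT (adjusted p = 0.0780), did not pass the edgeR test. Adora2a passed in KO with WT core replicate 3 left out, at -2.85 ± 1.07 (adjusted p = 0.0368, edgeR). With all libraries it passed in both genotypes with DESeq2 (adjusted p = 0.0198 in KO and 0.0191 in WT).

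Both neuropeptide precursors had lower means in the core than in the other regions. Penk, the precursor of the enkephalins of indirect-pathway neurons and also made by some cells outside the striatum, was at 106, 95.2 and 122 TPM in KO core, 230.1, 311 and 309 TPM in KO peri-infarct and 481, 146 and 201 TPM in KO contralateral tissue. In WT mice Penk was at 35.9, 40.8 and 37.4 TPM in core, 45.8, 286 and 37.0 TPM in peri-infarct and 66.0, 197 and 141 TPM in contralateral tissue. The core libraries of a genotype stayed within a narrow range, and each KO core library was above each WT core library. WT core replicate 3, where the other 8 members were at 0 to 1.68 TPM, had 489 counts of Penk and a TPM between those of the other WT core libraries. The log2 fold change of Penk between core and contralateral tissue was -1.23 ± 0.67 in KO (adjusted p = 0.199) and -1.38 ± 0.67 in WT (adjusted p = 0.108, edgeR), the smallest of the 9 in both genotypes. It did not pass without WT core replicate 3 either (adjusted p = 0.130 in KO and 0.123 in WT, edgeR). Penk passed in WT with limma on log2(TPM + 1) (adjusted p = 0.0372) and on log2(TPM + 0.1) (adjusted p = 0.0393). By edgeR it passed in WT without WT peri-infarct replicate 2 (adjusted p = 0.0271) and in KO with only the groups compared (adjusted p = 0.0337).

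Tac1, the precursor of substance P of direct-pathway neurons, was at 16.2, 16.6 and 30.5 TPM in KO core, 57.8, 70.2 and 79.9 TPM in KO peri-infarct and 154, 50.4 and 82.6 TPM in KO contralateral tissue. In WT it was at 15.5, 8.69 and 0 TPM in core, 28.6, 69.7 and 14.3 TPM in peri-infarct and 56.1, 61.7 and 40.5 TPM in contralateral tissue. The 0 in WT core replicate 3 is a count of 0. Every core library was below every contralateral library of its genotype. Tac1 fell in WT core by 2.52 on the log2 scale (SE 0.82, adjusted p = 0.0266, edgeR), and fell by 1.95 with WT core replicate 3 left out (SE 0.62, adjusted p = 0.0218, edgeR). The call was lost without WT contralateral replicate 1 (adjusted p = 0.0555) or 2 (adjusted p = 0.0624, edgeR) and when only the groups compared were fitted (adjusted p = 0.264). In KO the value was -2.05 ± 0.78 (adjusted p = 0.0749), and -2.06 ± 0.50 with that library left out (adjusted p = 0.00329, edgeR).

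Of the 3 members that carry dopamine and cyclic AMP signals inside projection neurons, Ppp1r1b and Pde10a passed in neither genotype in the edgeR fit of all libraries. In that fit Rgs9 passed in WT. Ppp1r1b encodes DARPP-32, an inhibitor of protein phosphatase 1 once protein kinase A has phosphorylated it. It was at 121, 66.9 and 54.6 TPM in KO core, 315, 356 and 381 TPM in KO peri-infarct and 460.4, 276 and 285 TPM in KO contralateral tissue, and at 88.9, 75.4 and 1.68 TPM in WT core, 90.9, 373 and 117 TPM in WT peri-infarct and 111, 233 and 223 TPM in WT contralateral tissue. Both genotypes had all core libraries below all contralateral libraries. The log2 fold change of Ppp1r1b between core and contralateral tissue was -1.92 ± 0.85 in KO (adjusted p = 0.120) and -1.62 ± 0.84 in WT (adjusted p = 0.130). Leaving out WT core replicate 3 gave -1.93 ± 0.49 in KO (adjusted p = 0.00403) and -1.06 ± 0.55 in WT (adjusted p = 0.142, edgeR). With all libraries Ppp1r1b passed in WT with limma on log2(TPM + 1) (adjusted p = 0.0309) and on log2(TPM + 0.1) (adjusted p = 0.0362).

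Pde10a encodes the phosphodiesterase that degrades cyclic AMP and cyclic GMP in projection neurons of both classes. Its levels were 17.7, 6.90 and 9.77 TPM in KO core, 49.7, 50.9 and 45.0 TPM in KO peri-infarct and 65.4, 35.7 and 43.4 TPM in KO contralateral tissue, and 11.5, 13.2 and 0.91 TPM in WT core, 15.8, 61.0 and 11.6 TPM in WT peri-infarct and 17.5, 46.6 and 35.8 TPM in WT contralateral tissue. Core and contralateral libraries did not overlap in either genotype. The log2 fold change was -1.73 ± 0.64 in KO (adjusted p = 0.0650) and -1.59 ± 0.63 in WT (adjusted p = 0.0585, edgeR). Without WT core replicate 3 Pde10a passed in KO (-1.74 ± 0.50, adjusted p = 0.00868, edgeR), and the WT value was -1.13 ± 0.56 (adjusted p = 0.127). With all libraries it passed in both genotypes with DESeq2 (adjusted p = 0.0194 in KO and 0.0198 in WT) and in WT with RLE scaling (adjusted p = 0.0496, edgeR). Expected counts of Pde10a were not whole numbers in the deposited table, so its reads may be shared with another feature, and its level is less certain than those of the other members.

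Rgs9 encodes a regulator of G-protein signalling that shortens D2 receptor signals in striatal neurons. It was at 17.4, 9.13 and 12.04 TPM in KO core, 47.8, 55.6 and 47.2 TPM in KO peri-infarct and 74.4, 34.2 and 39.4 TPM in KO contralateral tissue. In WT it was at 8.01, 8.40 and 0.87 TPM in core, 10.3, 52.7 and 9.61 TPM in peri-infarct and 13.7, 34.6 and 27.9 TPM in contralateral tissue. By CPM, which is counts scaled to library size, Rgs9 was 1 of the 2 members whose WT core libraries were all below the WT peri-infarct libraries. In TPM the margin of Rgs9 was little more than 1 TPM. Ppp1r1b was separate in TPM as well, at up to 88.9 TPM in WT core and from 90.9 TPM in WT peri-infarct tissue. Rgs9 fell in WT core against contralateral tissue by 1.65 on the log2 scale (SE 0.57, adjusted p = 0.0341, edgeR). That call was lost without WT core replicate 3 (-1.25 ± 0.56, adjusted p = 0.0944) and without WT contralateral replicate 2 (adjusted p = 0.104) or 3 (adjusted p = 0.0739, edgeR). The KO value was -1.46 ± 0.56 with all libraries (adjusted p = 0.0771) and -1.47 ± 0.48 without WT core replicate 3 (adjusted p = 0.0185, edgeR). It also passed with DESeq2 (adjusted p = 0.0312). By edgeR it passed with only the groups compared (adjusted p = 0.00363) and without WT peri-infarct replicate 2 (adjusted p = 0.0305).

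Syndig1l, a membrane protein related to the synapse protein SynDIG1, was at 4.06, 3.29 and 6.26 TPM in KO core, 20.5, 25.4 and 28.0 TPM in KO peri-infarct and 34.0, 12.2 and 23.1 TPM in KO contralateral tissue. In WT it was at 0.76, 2.18 and 0.19 TPM in core, 5.72, 28.0 and 1.76 TPM in peri-infarct and 9.69, 13.6 and 11.3 TPM in contralateral tissue. The core libraries were below all contralateral libraries in both genotypes. Syndig1l fell by 2.22 on the log2 scale in KO core (SE 0.75, adjusted p = 0.0472, edgeR) and fell by 3.25 in WT core (SE 0.83, adjusted p = 0.00777, edgeR). Leaving out WT core replicate 3 gave -2.22 ± 0.70 (adjusted p = 0.0150) and -2.84 ± 0.94 (adjusted p = 0.0283, edgeR). The KO call of Syndig1l was lost with no filter on low counts (adjusted p = 0.0514, edgeR), with limma on log2(TPM + 0.1) (adjusted p = 0.0713) and in 11 of the fits that left out a single library.

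Over the whole set, every member had a negative log2 fold change between core and contralateral tissue in both genotypes, and few passed the test in the fit of all libraries. In KO, 2 of 9 members fell (Drd2 and Syndig1l), with 3.31% of all tested genes called lower. In WT, 4 of 9 fell (Drd2, Syndig1l, Tac1 and Rgs9), with 11.5% of all genes called lower. The median log2 fold change of the members was -2.05 in KO and -2.27 in WT, against -0.01 and -0.03 over all genes tested. The core and contralateral libraries did not overlap for 9 of 9 members in KO and 8 of 9 in WT, and the same was true of 28.8% and 28.1% of all genes. An unadjusted p under 0.05 was reached by 8 members in KO and 7 in WT, and by 5506 and 7942 of the 15329 tested genes.

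These counts moved with single libraries. With WT core replicate 3 left out, 8 of 9 members were called lower in KO, all but Penk, when 27.8% of all genes were, and 3 of 9 in WT (Drd2, Syndig1l and Tac1), when 16.6% were. With WT peri-infarct replicate 2 left out, 6 were called in KO and 8 in WT. The share of all genes called was not set beside this and the following counts, so they are not read as particular to the members. The KO count was 0 without KO contralateral replicate 1, KO contralateral replicate 3, KO core replicate 2 or KO core replicate 3, and 1 without KO core replicate 1, any single KO peri-infarct library or any single WT contralateral library. The WT count was 2 without WT contralateral replicate 2, and 0 when only the groups compared were fitted, where Drd2 and Syndig1l each had an adjusted p of 0.0792 by edgeR. The direction did not move: the log2 fold change was negative in 234 of 234 combinations of member and setting in KO and in 234 of 234 in WT, over 26 settings of the test.

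**Figure D2:**
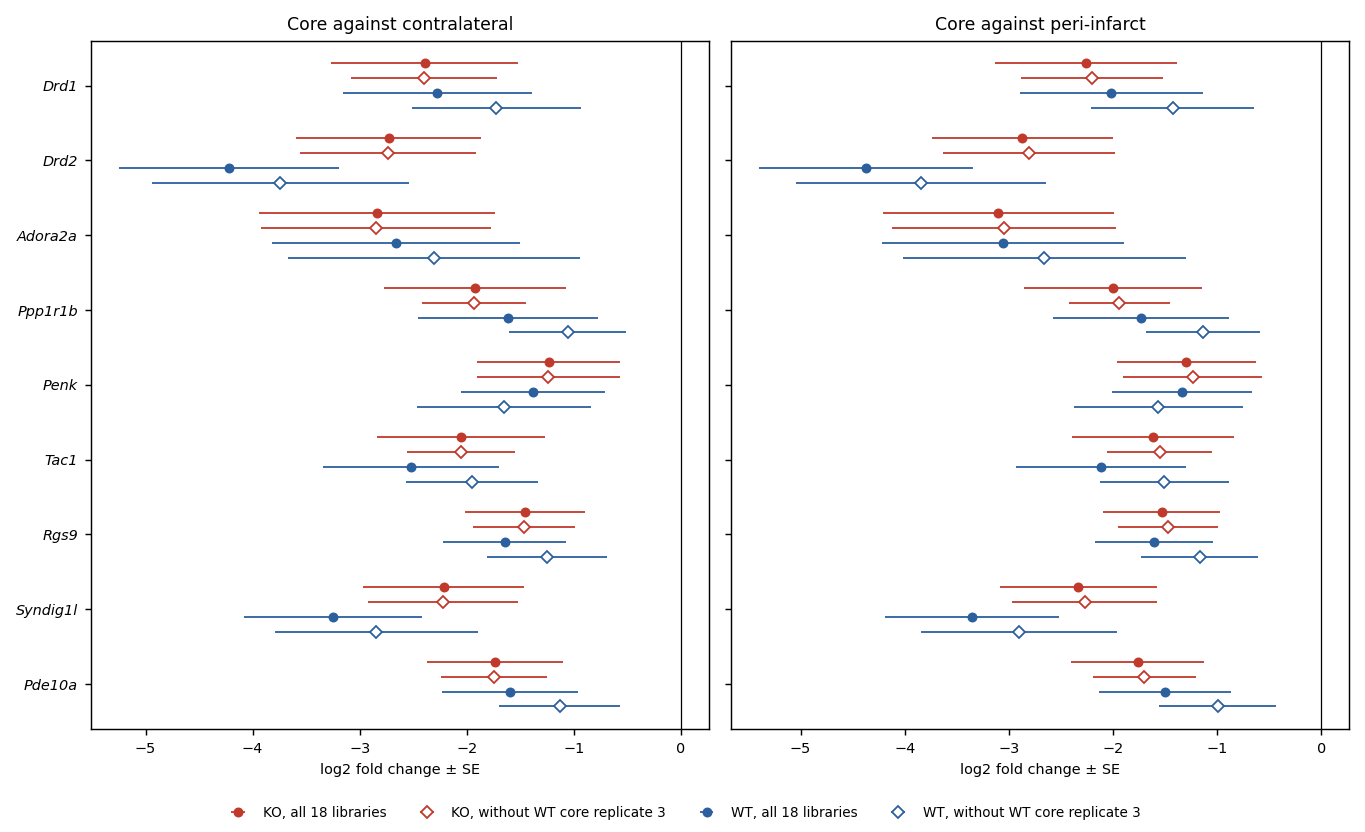
Log2 fold change with its standard error for each gene, core against contralateral tissue (left) and core against peri-infarct tissue (right), in KO (red) and WT (blue), from all 18 libraries (filled) and without WT core replicate 3 (open). All points lie below 0, with the KO values between -3.10 and -1.23 and Drd2 in WT lowest, at -4.22 and -4.37.

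Against peri-infarct tissue the members had negative values in the core of both genotypes, whose size in WT rested on WT peri-infarct replicate 2. In KO the log2 fold changes ran from -3.10 (Adora2a) to -1.30 (Penk), against a median of -0.04 over all genes. None of the 9 was called by edgeR, and 0% of all genes were called lower in this comparison. At an unadjusted p under 0.05 there were 7 members, beside 2857 of the 15329 tested genes. DESeq2 and limma on log2(TPM + 1) called 3 members each. The share of all genes that these tests called was not set beside these counts, which are not read as particular to the members. In KO 8 of 9, again all but Penk, were called without WT core replicate 3, when 15.8% of all genes were. The KO core and peri-infarct libraries did not overlap for 9 of 9 members, as for 22.0% of all genes.

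In WT, Drd2 and Syndig1l fell in core against peri-infarct tissue (2 of 9, with 0.678% of all genes called lower). Drd2 fell by 4.37 (SE 1.03) and Syndig1l fell by 3.35 (SE 0.84) on the log2 scale, each at an adjusted p of 0.0342 by edgeR. The median of the members was -2.02 and that of all genes -0.04. By CPM the libraries did not overlap for 2 members, Drd2 and Rgs9, with 14.4% of all genes. In TPM those of Ppp1r1b did not overlap either. None was called without WT core replicate 3, when 0.486% of all genes were, and 3 had an unadjusted p under 0.05, as did 3230 of 15432 genes. The calls were also 0 when any single WT peri-infarct library was left out, and 4 without WT core replicate 1. For these fits the share of all genes was not set beside the counts. Without WT peri-infarct replicate 2 the median of the members was -0.62, with Drd2 at -2.29 and Penk at 0.21, the only positive value among 234 in this comparison.

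No member passed the test between peri-infarct and contralateral tissue. In KO the log2 fold changes ran from -0.44 to 0.26, with 0 of 9 called when 4.48% of all genes were, and 21.4% without WT core replicate 3. In WT they ran from -0.40 to 0.39, with 0 of 9 called when 3.27% of all genes were, and 19.5% without that library. This WT range rested on single WT peri-infarct libraries: without replicate 2 the values ran from -2.04 to -0.75 with a median of -1.52 (lowest adjusted p = 0.136, edgeR), and the median was 0.35 without replicate 1 and 0.36 without replicate 3. None of the 9 had an unadjusted p under 0.05 in either genotype with all libraries or without WT core replicate 3, and the DESeq2 and limma fits called 0 as well. Of all tested genes, 2320 in KO and 1983 in WT had such a p with all libraries. The standard errors were wide, so a p over the threshold does not show equal levels. The KO peri-infarct libraries were close to each other, with Drd1 at 15.7 ± 0.81 TPM and Drd2 at 19.1 ± 0.80 TPM (SD, n = 3). For Drd1, WT peri-infarct replicate 2 was above the KO peri-infarct libraries and the other 2 libraries were near the level of WT core replicates 1 and 2. Drd1 was thus at 9.49 ± 10.8 TPM (SD, n = 3) in WT peri-infarct tissue. Not every member was that near to the core: Drd2 in those 2 libraries was at 3.21 and 0.97 TPM, against 0.03 to 0.72 TPM in WT core.

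Between genotypes the KO over WT value of each member was positive in all 3 regions, and none passed the test. In the core the KO over WT log2 fold changes ran from 0.38 (Pde10a) to 2.57 (Drd2), with a median of 1.19 against -0.01 over all genes. edgeR called 0 of 9, when 0.0130% of all genes were called, and Drd2 (2.57 ± 1.04, adjusted p = 0.401) and Syndig1l (2.07 ± 0.83, adjusted p = 0.398) had an unadjusted p under 0.05. Such a p was reached by 1822 of the 15329 tested genes. The KO core libraries were all above the WT core libraries for 5 of 9 members (Drd2, Penk, Tac1, Rgs9 and Syndig1l), as for 13.3% of all genes. The median was 0.81 without WT core replicate 3, the values ran from -0.08 (Drd1) to 2.10 (Drd2), and 0 of 9 were called when 3.06% of all genes were. Over the 26 settings, 4 of 234 values in the core were negative. Penk in that library was between the other WT core libraries in TPM, but above them in CPM, at 26.1 against 18.4 and 20.8. Its KO over WT value was 1.22 ± 0.67 (adjusted p = 0.466) with that library and 1.50 ± 0.81 (adjusted p = 0.326) without it (edgeR).

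In peri-infarct tissue the KO over WT values ran from 0.65 (Pde10a) to 1.24 (Adora2a), with a median of 0.92 and 0 of 9 called by edgeR when 0.00652% of all genes were, and 0.117% without WT core replicate 3. Without WT peri-infarct replicate 2 they ran from 1.59 (Pde10a) to 3.67 (Adora2a), with a median of 2.22 and 0 of 9 called, and the median was 0.66 without WT peri-infarct replicate 1 and 0.54 without WT peri-infarct replicate 3. No member had separate groups, since WT replicate 2 was within or above the KO range, while 11.6% of all genes were higher in KO with no overlap. In contralateral tissue they ran from 0.52 (Pde10a) to 1.37 (Adora2a), with a median of 0.89 and 0 of 9 called when 0.00652% of all genes were, and 0.0389% without that library. Only Ppp1r1b had its KO contralateral libraries all above the WT ones, as for 9.76% of all genes. In both regions no member had an unadjusted p under 0.05, when 495 of all genes did in peri-infarct and 454 in contralateral tissue. DESeq2 and limma called no member in any of the 3 regions.

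Averaged over the 3 regions, KO over WT values ran from 0.52 (Pde10a) to 1.57 (Drd2), with a median of 1.04. edgeR called 0 of 9, when 0.228% of all genes were called, and 5 members had an unadjusted p under 0.05 (Drd2, Penk, Tac1, Rgs9 and Syndig1l), as did 1997 of 15329 genes. With WT core replicate 3 left out it was again 0 of 9, when 7.46% of all genes were, with a median of 0.86. DESeq2 called 1 member. Without WT peri-infarct replicate 2, edgeR called 3, which were Drd2 (2.26 ± 0.37, adjusted p = 0.0361), Penk (1.67 ± 0.27, adjusted p = 0.0320) and Syndig1l (1.93 ± 0.34, adjusted p = 0.0444). The share of all genes called was not set beside these calls or the DESeq2 call, and none is read as particular to the members. The average was positive for every member in all 225 combinations of member and setting.

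**Figure D3:**
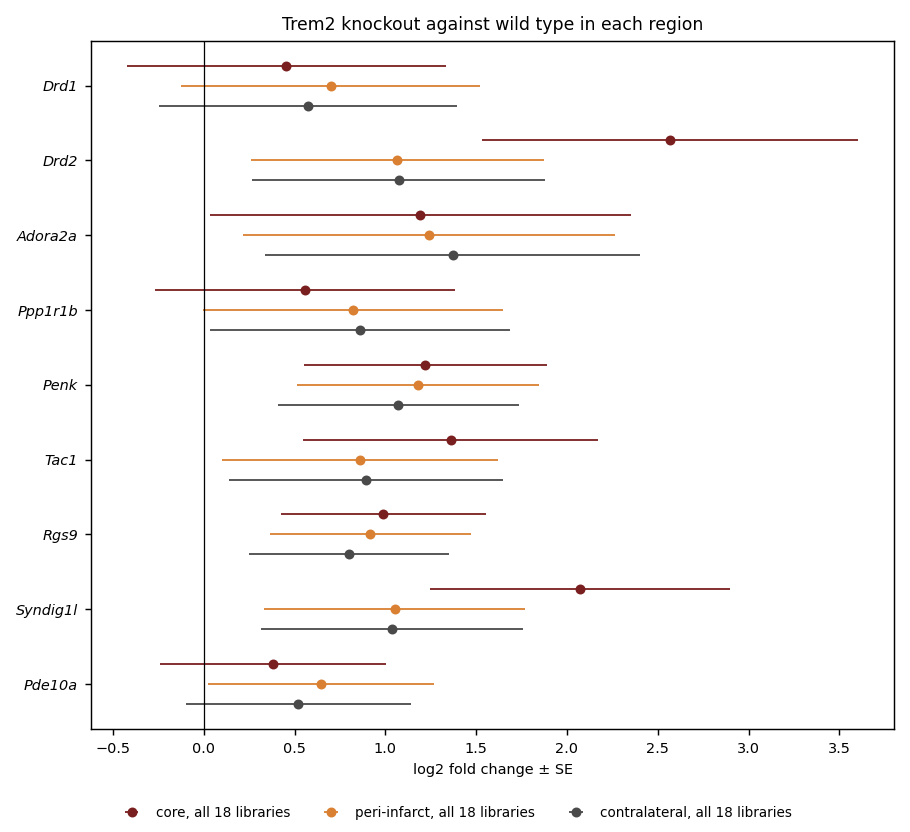
Log2 fold change of KO over WT with its standard error for each gene in core, peri-infarct and contralateral tissue, from all 18 libraries. All points lie above 0, and the largest values are those of Drd2 (2.57) and Syndig1l (2.07) in the core.

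Whether the change between regions differed between genotypes was tested as an interaction. For core against contralateral tissue, the KO minus WT differences ran from -0.30 to 1.49, the highest being that of Drd2 (1.49 ± 1.31). For core against peri-infarct tissue they ran from -0.27 to 1.50, and for peri-infarct against contralateral tissue from -0.13 to 0.12. Both ranges rested on WT peri-infarct replicate 2, without which they were -2.48 to -0.28 and 0.75 to 2.30. The difference for peri-infarct against contralateral tissue was negative for 9 of 9 members without WT peri-infarct replicate 1 or 3. None of the 9 was called in any of the 3 by edgeR, where 0% of all genes were called with all libraries and 0% without WT core replicate 3. With all libraries none had an unadjusted p under 0.05, and DESeq2 called none. The larger drop of Drd2 in WT than in KO core is therefore not shown to differ between genotypes.

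The members varied more between libraries of 1 group than most genes did. Over the 17 libraries other than WT core replicate 3, the within-group standard deviation of log2 CPM (counts scaled to library size) was 0.62 (Rgs9) to 1.46 (Adora2a), with a median of 0.85. Over all tested genes the median was 0.16 and the 90th percentile 0.47, and 9 of 9 members were above 0.47. Within groups the members went up and down together. In KO contralateral tissue replicate 1 was highest and replicate 2 lowest for 9 of 9 members. Replicate 2 was highest for 9 of 9 in both WT contralateral and WT peri-infarct tissue, WT contralateral replicate 1 was lowest for 8, and WT core replicate 3 was lowest for 8.

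Averaged over the 9 members as a deviation of log2 CPM from each gene's mean, the KO core libraries stood at -0.26, -1.15 and -0.77, the WT core libraries at -1.52, -1.33 and -4.10, the KO peri-infarct libraries at 1.27, 1.52 and 1.54 and the WT peri-infarct libraries at -0.84, 1.64 and -1.12. KO contralateral libraries stood at 2.04, 0.71 and 1.18 and WT contralateral libraries at -0.34, 0.93 and 0.61. WT peri-infarct replicates 1 and 3 therefore lay above all WT core libraries but within the range of the KO core libraries, and WT peri-infarct replicate 2 higher than any KO peri-infarct library.

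Over the deviations from group means in those 17 libraries, the 36 pairs of members correlated at a Pearson r of 0.42 to 0.98, with a median of 0.87. Rgs9 followed the mean of the other 8 most closely (r = 0.99) and Tac1 least (r = 0.67). The lowest pair was Adora2a and Tac1, genes of opposite classes, at 0.42, and the highest was Drd1 and Pde10a, at 0.98. Members of opposite classes were not set apart in general, since Drd1 and Adora2a correlated at 0.94. These correlations describe libraries that share groups, depth and dissection, and are given with no test.

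Among 13089 genes that were not members, those closest to the members' mean deviation included Rxrg (r = 0.95), Rasd2 (0.95), Adcy5 (0.94), Gnal (0.94), Rarb (0.93), Actn2 (0.93), Pde1b (0.93), St8sia3 (0.90) and Smarca1 (0.89), as Pearson r over the 17 libraries. Most of these are on the lists of striatal or cyclic AMP cascade genes used here. Rxrg and Rarb encode retinoid receptors, Rasd2 the small GTPase Rhes, Adcy5 the adenylyl cyclase that dopamine receptors act on in the striatum, Gnal the stimulatory G-protein subunit coupled to D1 and to the adenosine receptor, and Pde1b a calcium-dependent phosphodiesterase. Between core and contralateral tissue Rxrg had a log2 fold change of -2.33 ± 0.90 in KO (adjusted p = 0.0767) and -1.93 ± 0.90 in WT (adjusted p = 0.0968, edgeR). Pde1b fell in WT by 1.09 (SE 0.38, adjusted p = 0.0367, edgeR), and was at -0.99 ± 0.38 in KO (adjusted p = 0.0769).

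Other genes of the same neurons and of the same cascade were counted from lists chosen with earlier results of these data known. Of 19 further genes shared by both classes, 3 were called lower in core than in contralateral tissue in KO and 5 in WT, with medians of -1.63 and -1.16 on the log2 scale. The calls were Foxp1, Tmem158 and Six3 in KO and Scn4b, Foxp1, Foxp2, Six3 and Ido1 in WT, named, like other single calls of these lists, after their values were seen. These counts were 15 and 4 without WT core replicate 3. Lower calls of this and the later lists stand beside 3.31% (KO) and 11.5% (WT) of all genes with all libraries. Without WT core replicate 3 those shares were 27.8% and 16.6%. Scn4b, a sodium channel subunit, was at 17.04, 9.03 and 14.7 TPM in KO core, against 99.3, 67.4 and 73.1 TPM in KO contralateral tissue, and at 16.2, 25.3 and 0.10 TPM in WT core, against 61.9, 69.0 and 103 TPM in WT contralateral tissue. Scn4b fell by 2.33 in WT (SE 0.87, adjusted p = 0.0464), and the KO value was -2.43 ± 0.88 (adjusted p = 0.0602, edgeR). Kcnip2, a potassium channel partner, was at -1.09 ± 0.86 in KO and -0.82 ± 0.86 in WT and passed in neither.

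The 7 other direct-pathway genes had 0 lower calls in KO and 1 in WT (Slc35d3), with medians of -1.21 and -0.72. When WT core replicate 3 was left out they had 4 lower calls and 1 higher call in KO and 0 in WT. Pdyn, the precursor of dynorphin, was at 13.9, 10.9 and 9.19 TPM in KO core and 47.8, 33.8 and 29.3 TPM in KO contralateral tissue, and at 15.6, 14.4 and 0.31 TPM in WT core and 18.03, 27.0 and 22.0 TPM in WT contralateral tissue. Its log2 fold change was -1.58 ± 0.65 in KO (adjusted p = 0.0959) and -0.97 ± 0.65 in WT (adjusted p = 0.223, edgeR). Sfxn1, a mitochondrial serine transporter of many cell types, was at -0.07 ± 0.10 in KO and -0.01 ± 0.10 in WT. Of the 3 other indirect-pathway genes, 0 were called lower in KO and 1 in WT, the receptor gene Gpr6, which fell by 3.73 (SE 1.16, adjusted p = 0.0211, edgeR) and was at -2.54 ± 0.97 in KO (adjusted p = 0.0753). Gpr52, a receptor that raises cyclic AMP, was at -1.55 ± 0.80 in KO and -1.53 ± 0.81 in WT. Without WT core replicate 3 the indirect-pathway counts were 3 of 3 in KO and 0 in WT.

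Of 16 genes of the dopamine and cyclic AMP cascade, 2 were called lower in KO core (Arpp19 and Cdk5) and 8 in WT core, with medians of -0.95 and -1.07. Without WT core replicate 3 all 16 were called in KO and 9 in WT, when 27.8% and 16.6% of all genes were called lower. Prkacb, a catalytic subunit of protein kinase A, fell by 0.75 in WT (SE 0.22, adjusted p = 0.0159, edgeR) and was at -0.44 ± 0.22 in KO (adjusted p = 0.165). Ppp3ca, the catalytic subunit of calcineurin, which removes phosphate from DARPP-32, was at -0.72 ± 0.54 in KO and -0.75 ± 0.54 in WT and passed in neither. Many genes of this list are also expressed by cortical neurons. The members' medians of -2.05 and -2.27 lay beyond those of every list of neuronal genes but the cholinergic one in KO, a description that was not tested as a difference.

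Markers of other cell types moved with the members in some libraries. The summed level of 12 cortical excitatory markers was 575 to 1620 TPM in 17 libraries and 12.8 TPM in WT core replicate 3, where 3 of the 12 were at 0. It varied less than the members outside the core. In WT peri-infarct tissue it was 965, 1297 and 1189 TPM, while the members summed to 205, 947 and 199 TPM, and replicate 2 was highest in both sums. In KO contralateral tissue the cortical sum was 1136, 1482 and 1235 TPM while the members summed to 1368, 591 and 724 TPM, so that the library with the highest member sum had the lowest cortical sum. Between core and contralateral tissue the cortical list had 0 of 12 genes called in either genotype, with medians of -0.71 in KO and -0.90 in WT, and 6 in KO and 2 in WT called lower without WT core replicate 3. The 9 pan-neuronal markers had 0 calls, with medians of -0.93 in KO and -1.16 in WT. Without that library 9 of 9 were called lower in both genotypes, when 27.8% of all genes were in KO and 16.6% in WT.

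Markers of cholinergic interneurons, a rare striatal cell type, were low everywhere. The sum of 7 of them was 1.50, 0.56 and 1.03 TPM in KO core, 1.16, 1.38 and 0.45 TPM in WT core, 8.05, 5.43 and 12.2 TPM in KO peri-infarct, 1.91, 5.79 and 1.21 TPM in WT peri-infarct, 18.5, 2.94 and 3.52 TPM in KO contralateral and 1.72, 3.47 and 3.26 TPM in WT contralateral tissue. In 5 of the 6 groups the library with the highest member sum also had the highest cholinergic sum, the exception being WT core. Chat, the enzyme that makes acetylcholine, was at 0.34, 0.04 and 0.09 TPM in KO core and 3.41, 0.54 and 0.62 TPM in KO contralateral tissue, and fell by 3.13 on the log2 scale (SE 0.92, adjusted p = 0.0249, edgeR). Slc5a7, the choline transporter, fell by 2.29 in KO (SE 0.63, adjusted p = 0.0176, edgeR), and these were the 2 calls among 5 tested genes of the list in KO, with 0 in WT. Without WT core replicate 3 there were 4 lower calls among 6 tested genes in KO and 0 in WT. The part that the share of striatal tissue in a library had in the members' levels was not tested.

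**Figure D4:**
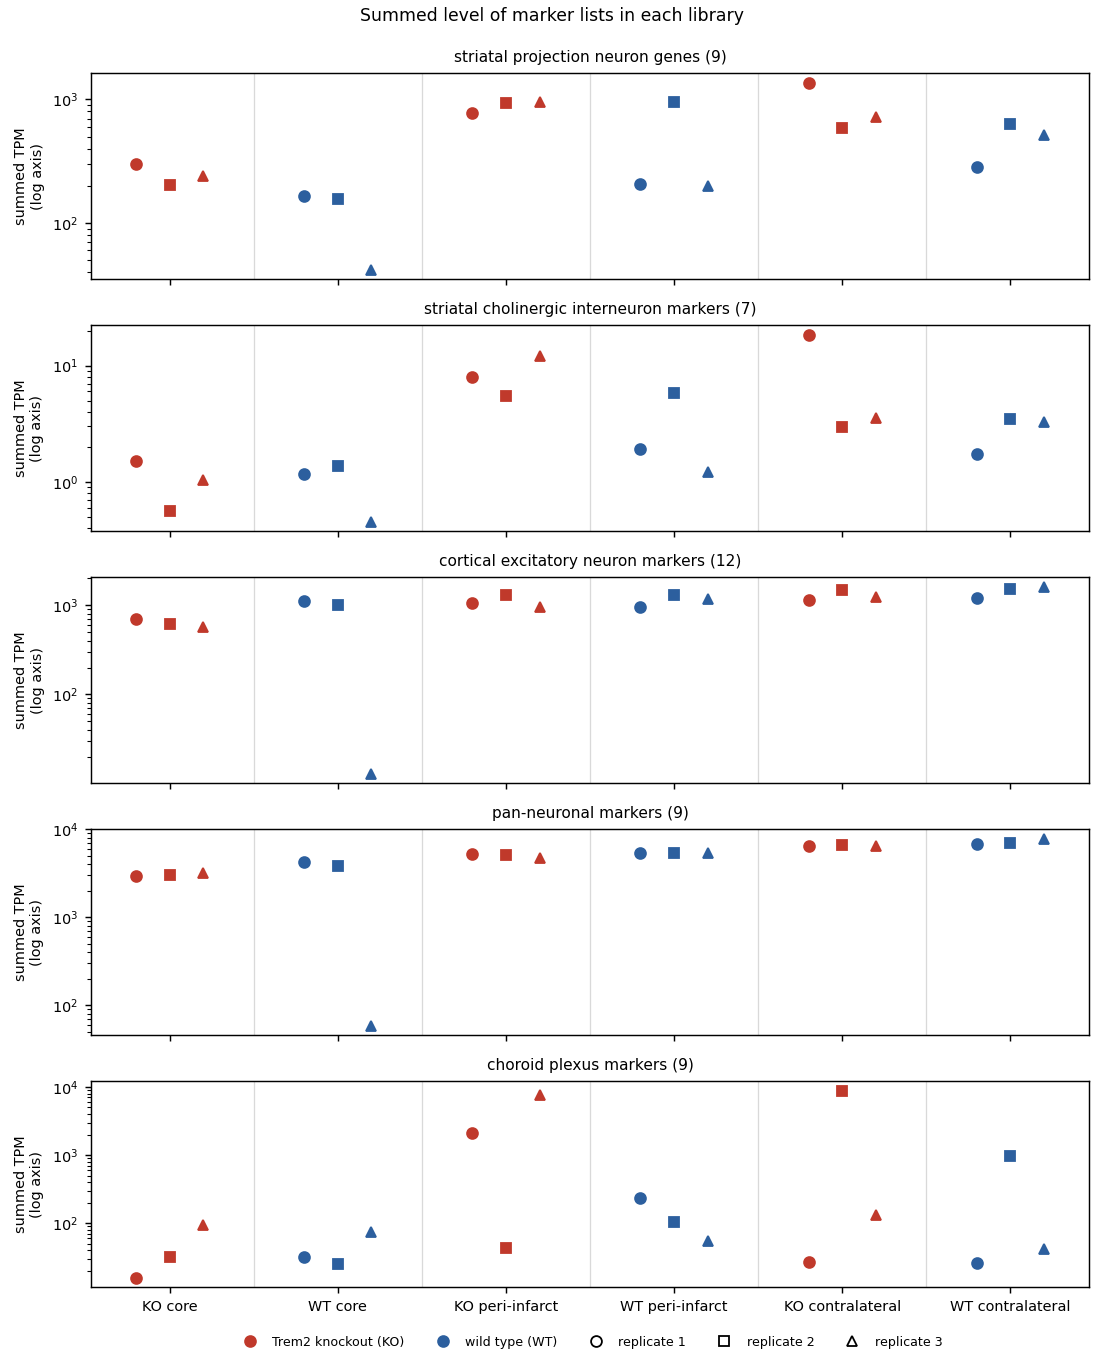
Summed TPM on a log axis for the 9 striatal projection neuron genes and for markers of striatal cholinergic interneurons, cortical excitatory neurons, neurons in general and choroid plexus, in each library; the shape gives the replicate number. The member and cholinergic sums vary between libraries of a group, the cortical and pan-neuronal sums vary less except in WT core replicate 3, and the choroid plexus sum reaches 8860 TPM in KO contralateral replicate 2.

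Choroid plexus markers, from tissue inside the ventricles next to the striatum, ranked differently from the members in KO tissue. Their sum of 9 genes was 26.6, 8860 and 133 TPM in KO contralateral tissue, where the members were highest in replicate 1, and 2089, 43.6 and 7663 TPM in KO peri-infarct tissue, where the members were nearly even. In WT contralateral tissue it was 26.3, 958 and 42.1 TPM, and replicate 2 was highest for the members as well. Fibroblast and microglia markers were high in the core, where all 6 and all 9 genes were called higher than in contralateral tissue in both genotypes. The share of all genes called higher is not given here or for other lists, so higher calls are not read as particular to a list. The 6 fibroblast markers summed to 765, 1474 and 1232 TPM in KO core and 653, 670.3 and 1262 TPM in WT core.

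The remaining lists were counted for core against contralateral tissue beside the 3.31% and 11.5% of all genes called lower in KO and WT, and nothing particular to a list is read from these counts. Without WT core replicate 3 these shares were 27.8% and 16.6%. Lower calls in KO and WT numbered 1 and 1 of 9 inhibitory neuron markers, 1 and 0 of 4 tested midbrain dopamine neuron markers, 0 and 0 of 7 hippocampal markers, 1 and 0 of 7 ependymal markers and 0 and 1 of 10 oligodendrocyte markers. The 9 choroid plexus markers had 2 lower calls in KO and 1 higher call in WT, and the 8 thalamic markers 1 higher call in KO and 1 call in each direction in WT. Without WT core replicate 3 the lower calls in KO and WT were 6 and 6 for inhibitory, 2 and 0 for midbrain, 0 and 0 for hippocampal, 3 and 0 for ependymal, 2 and 3 for oligodendrocyte, 5 and 0 for choroid plexus and 0 and 1 for thalamic markers, with 2 thalamic markers called higher in KO and 1 in WT. Between genotypes no gene of the 16 lists was called in any region with all 18 libraries. Without that library, 2 cortical excitatory, 1 inhibitory and 5 pan-neuronal markers were called lower in KO than in WT core. In that comparison 3.06% of all genes were called in either direction. The share called lower is not given, so these calls are not read as particular to a list.

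Ratios between members within a library do not depend on its scaling. Drd1 over Drd2 was 1.35, 1.54 and 0.974 in KO core and 6.76, 5.21 and 1.67 in WT core, the last of which rests on 2 and 1 counts. Outside the core it was 0.765 to 1.65 in 11 of 12 libraries and 3.38 in WT peri-infarct replicate 3. Penk over Ppp1r1b was 0.873, 1.42 and 2.24 in KO core and 0.404, 0.541 and 22.3 in WT core, against 0.316 to 1.05 in the 12 libraries of the other regions. KO core replicates 2 and 3 and WT core replicate 3 were above that range.

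Adora2a over Drd2, a ratio of 2 receptors of the same class of neuron, was 1.23 to 1.84 in 9 of the 12 libraries outside the core. It was 0.321 in WT peri-infarct replicate 1 and 0.361 in WT contralateral replicate 1, and 3.86 in WT peri-infarct replicate 3. Penk over Tac1 was also lowest in both libraries numbered 1, at 1.60 in WT peri-infarct and 1.18 in WT contralateral tissue, against 2.44 to 4.43 in the other 10. In the core Adora2a over Drd2 was 2.19, 0.984 and 0.513 in KO and 4.95, 2.24 and 12.3 in WT, where the counts of both genes are low.

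**Figure D5:**
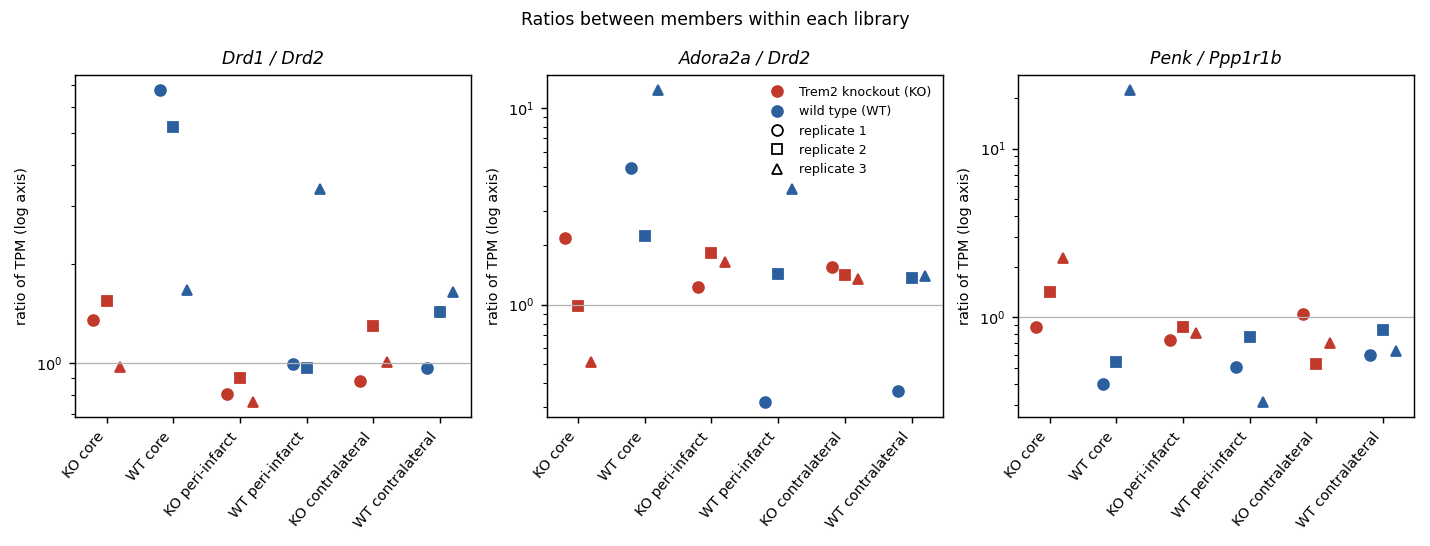
Ratio of TPM between members in each library on a log axis, for Drd1 over Drd2 (left), Adora2a over Drd2 (middle) and Penk over Ppp1r1b (right); the grey line marks a ratio of 1 and the shape gives the replicate number. WT core replicates 1 and 2 are highest for Drd1 over Drd2 (6.76 and 5.21), both WT libraries numbered 1 outside the core are lowest for Adora2a over Drd2 (0.321 and 0.361), and WT core replicate 3 is at 22.3 for Penk over Ppp1r1b.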

How the data were processed

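Polyadenylated RNA was extracted with a Trizol-like reagent and sequenced from libraries made with an MGIEasy stLFR kit, per the labels' protocols. The authors deposited 1 table of expected counts and 1 table of TPM per gene. Bowtie2, Subread, HISAT2 2.0.4 and the builds mm39 and GRCm39 are listed, with no roles, per the submitters' processing notes. Which tool made which table, and whether counting used strand, are not given in the sources used. The estimated (expected) counts deposited by the authors included values that were not whole for 3678 of 18922 genes (19.4%). They were rounded before testing, although the test had been planned for whole counts. The authors' TPM, corrected for gene length and library size, served for levels, sums, ratios and limma on log2(TPM + 1) and log2(TPM + 0.1).

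Groups came from the sample labels. Genes were filtered with filterByExpr, scaled with TMM and fitted with 1 mean per group in edgeR 4.0.16 (R 4.3.3, robust quasi-likelihood test, 13 comparisons), with Benjamini-Hochberg adjustment over 15329 tested genes and a threshold of 0.05. Alternatives were RLE scaling, no filter, DESeq2 1.42.0, limma 3.58.1 on TPM, only the groups compared, a replicate block and leaving out each library. The code was tested on simulated data. The members, the 16 gene lists and the tests were chosen with earlier results of these data known. Named genes were the 9 members, of each list the 2 with the highest mean CPM plus those a sentence on a library or count needed, and the 10 genes of most similar pattern (mean log2 CPM of at least 1), of which 1 is not reported here. Coordinates are given for RefSeq promoters alone, in GRCm38.p6, another build than that of the tables. Replicate numbers paired libraries in 1 of 9 pairs of groups: same-numbered WT peri-infarct and WT contralateral libraries deviated together (r = 0.398, 0.436 and 0.386, in each case the best match). No label states this pairing, which was read from the values. An exact permutation test of 3 against 3 cannot give a 2-sided p under 0.1, so none was used.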

Additional observations from a re-analysis of the deposited data

How the results depend on the processing

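The counts of members called depended on the test more than their direction did. For core against contralateral tissue in KO, 2 members were called in the reported fit, 1 with no filter on low counts and with limma on log2(TPM + 0.1), 4 with limma on log2(TPM + 1) and with the replicate block, 6 with DESeq2 and 9 when only the groups compared were fitted. In WT the reported count of 4 became 7 with DESeq2, 8 with limma at either pseudocount and 0 when only the groups compared were fitted. For core against peri-infarct tissue in KO the reported count of 0 became 3 with DESeq2 and with limma on log2(TPM + 1) and 9 when only the groups compared were fitted, and in WT the reported count of 2 became 4 with DESeq2 and 0 with limma at either pseudocount, with only the groups compared and with the replicate block. The cause was not tested. Counts in this paragraph are given without the share of all genes that each alternative called, so they are not read as particular to the members. KO over WT averaged over regions had 1 call with DESeq2 and 0 in the reported fit. Leaving out single libraries gave 0 to 8 and 2 to 8 calls for core against contralateral tissue in KO and WT, 0 to 8 and 0 to 4 for core against peri-infarct tissue in KO and WT, 0 to 3 for the average over regions, and 0 in the other 8 comparisons. Of 2916 member values under alternatives, 43 lost the call, 81 gained one and 0 reversed a called direction. The replicate block kept the count of 0 in peri-infarct against contralateral tissue in WT, where the numbers paired the libraries, and elsewhere the libraries share only a number. On the log2(TPM + 1) scale the median of all genes shifted to -0.34 in WT core and -0.12 in KO core against contralateral tissue and to 0.22 for KO over WT in the core. Low counts limit Tac1, Drd1, Drd2, Syndig1l and Adora2a in WT core replicate 3, which had 0, 2, 1, 6 and 10 counts, and values that rest on such counts are uncertain. The total count of that library was the highest of all, at 18713770.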
